A study of Mus musculus with 12 samples.

Results

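3T3-L1 cells that were put through adipogenic differentiation in medium from p53-knockout breast cancer cells were compared, over all genes, with the same cells before differentiation. The comparison holds 6 of the 12 libraries of the study, 3 for each group, and was chosen by the sample labels and by no measured value. 3T3-L1 is a mouse fibroblast-like line of committed preadipocytes, and every library came from cells labelled wild type in genotype. The cells in p53-KO medium (labelled replicates 1 to 3) were taken 2 days past confluence, induced for 2 days with 0.5 mM 3-isobutyl-1-methylxanthine (IBMX, which raises cyclic AMP), 1 μM dexamethasone (a glucocorticoid), 1 μg/mL insulin and 2 μM rosiglitazone (an activator of the receptor PPARγ) in 10% fetal bovine serum, kept for 2 further days in insulin, and then moved to maintenance medium, with filtered medium of p53-KO WEA cells mixed in at equal volume at each step. The cells in p53-WT medium had the same treatment with medium of p53-intact WEA cells. The cells of regular differentiation (replicates 4 to 6) had the same cocktail and no cancer medium. The preadipocytes (replicates 4 to 6) were undifferentiated and untreated, and were grown in 10% calf serum. The p53 knockout lies in the cancer cells that made the medium, so the level of Trp53 in 3T3-L1 cells checks no label. No group had medium of non-cancer cells mixed in. The p53-WT medium was mixed in at the same ratio and so shares the dilution of the inducers; the summed level of 15 lipid droplet genes was 2939 to 3191 CPM in p53-KO medium, 9239 to 9686 CPM in p53-WT medium and 11330 to 11900 CPM in regular differentiation. How far either medium was depleted was not tested. Preadipocytes also differ from the other groups in serum, and no label gives the day on which they were harvested. The labels do not say whether replicates are separate cultures, so p-values measure a spread between libraries that may be technical. That spread was estimated over all 12 libraries, including those outside this comparison.

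Adipogenesis runs as a cascade: hormones and cyclic AMP switch on C/EBPβ and C/EBPδ, these induce the nuclear receptor PPARγ and C/EBPα, and that pair then maintains each other and drives the genes of lipid storage, insulin response and adipokine secretion. Preadipocytes leave the cell cycle, dismantle actin stress fibres and exchange a fibrillar collagen and fibronectin matrix for a basement membrane as they fill with fat. Inflammatory cytokines and members of the gp130 family, which signal through STAT3, are known to hold this cascade back in culture and to induce acute phase proteins.

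The table held unique molecular identifier (UMI) counts per gene from the 3′-end method MARS-seq. The libraries of p53-KO medium held 748693, 1132099 and 669007 counts, against 1836626, 1539183 and 1458452 in preadipocytes, so the smaller libraries limit the calls. The first library of p53-KO medium stood apart from its group: 296 genes were at least 2-fold lower in it and 57 at least 2-fold higher than in the other 2. Preadipocyte replicate 5 stood apart in a similar way, with 172 genes lower and 40 higher, and 103 of the low genes were shared (34.8% of the genes low in the first library and 59.9% of those low in the second). Ppia, a cyclophilin used as a reference gene, showed it with 9.17, 174 and 230 CPM in p53-KO medium and 184, 9.33 and 239 CPM in preadipocytes. It was not called, and it shares 63.1% of the sequence stretches at its 3′ end with other genes. Preadipocyte replicate 5 also held several-fold more of some adipocyte transcripts than its partners, with 80.2 CPM of Adipoq against 6.51 and 7.13 CPM. This did not hold for all of them: the summed level of lipid droplet genes was 579.5 CPM in it, against 558.5 and 564.2 CPM. The main counts are therefore also given without both of these libraries, and where a gene list has no such count, its calls moved by at most 3 genes in either direction.

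Between p53-KO medium and preadipocytes, 1956 of 9519 genes tested passed an adjusted p of 0.05, which is 20.5% of them (a quasi-likelihood test in edgeR, adjusted by Benjamini-Hochberg over all genes tested; such genes are called here). They split into 1156 genes higher in p53-KO medium, 12.1% of the genes tested, and 800 lower, 8.4%. The counts of each gene list below are to be read beside these shares. Of these, 858 changed at least 2-fold (9.01%), 599 upwards (6.29%) and 259 downwards (2.72%). The higher genes made up 59.1% of the calls under TMM scaling and 46.7% (1000 higher, 1141 lower) under plain library sizes, which put the median log2 fold change of all genes at -0.09 in place of -0.01. The balance of the directions therefore depends on the scaling, and a list median within about 0.1 of 0 has no set direction. Without both doubted libraries 1939 genes were called, 1202 higher and 737 lower, and 1584 of them were among the 1956. In a fit of the 6 compared libraries alone, 1356 genes were called, 867 higher and 489 lower. Regular differentiation, set against the same preadipocytes, gave 4874 calls (51.2%; 24.8% higher and 26.4% lower), and p53-WT medium gave 4485 (47.1%). In the authors' deposited table of this comparison a total of 1519 genes had an adjusted p under 0.05, 1073 higher and 446 lower in p53-KO medium.

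**Figure D1:**
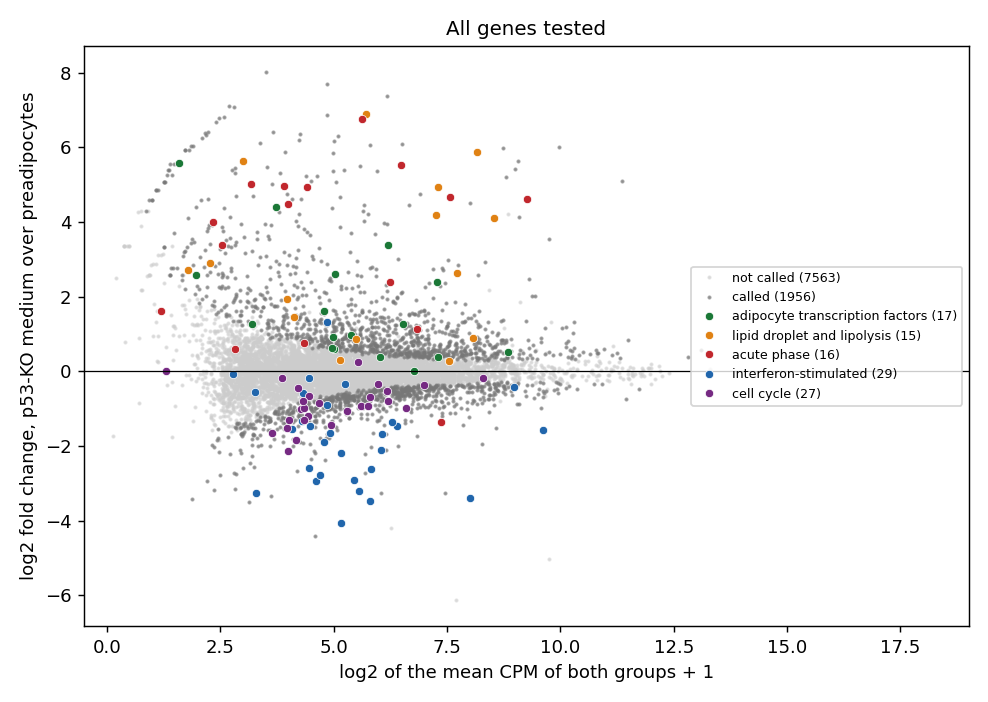
Each point is a gene: the x axis is the log2 of the mean CPM of both groups plus 1, and the y axis is the log2 fold change of p53-KO medium over preadipocytes. Light grey points are among the 7563 genes not called and dark grey points among the 1956 called; coloured points are members of 5 gene lists, of which lipid droplet and acute phase genes lie high and interferon-stimulated and cell cycle genes low.

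Over all genes, the cells in p53-KO medium lay about as far from preadipocytes as from differentiated cells. The root mean square difference in log2 CPM had a median of 0.851 (range 0.821 to 0.975 over 9 pairs of libraries) to preadipocytes, 0.939 to regular differentiation and 0.784 to p53-WT medium. Libraries of p53-KO medium differed among themselves by 0.548 to 0.724, and preadipocytes by 0.369 to 0.558. The range was 0.357 to 0.39 in p53-WT medium and 0.374 to 0.414 in regular differentiation, which also enter the estimate of the spread. Regular differentiation differed from preadipocytes by a median of 1.232. Of the 1156 genes higher in p53-KO medium than in preadipocytes, 973 also had a regular differentiation mean above preadipocytes, and in 737 of these regular differentiation lay further up. In 183 genes, 1.92% of those tested, the regular differentiation mean lay below preadipocytes while p53-KO medium was called above them. Of the 800 lower genes, 760 were below preadipocytes in regular differentiation too, with 477 further down there, and 40 (0.42%) were above. These counts use the same preadipocyte libraries in both comparisons and are descriptions.

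What remained of the transcription factor programme was most of its members at part of their level. Of 17 adipocyte transcription factors tested, 12 rose over preadipocytes and 0 fell, with a median log2 fold change of 1.26 (regular differentiation: 1.75; all genes tested: -0.01). Pparg, the receptor at the centre of the cascade, had 221, 245 and 309 CPM in p53-KO medium, against 43.5, 56 and 48 CPM in preadipocytes. Its groups did not overlap, and it rose by 2.39 ± 0.13 (SE) on the log2 scale with an adjusted p of 3.36e-14, while its mean in regular differentiation was 879 CPM. Cebpa, the partner that holds Pparg on, reached 151, 116 and 133 CPM against 13.5, 11.2 and 13 CPM in preadipocytes. It rose by 3.39 ± 0.15 (adjusted p = 5.4e-16), again with clearly separate groups. Klf15, a zinc-finger factor induced by glucocorticoids, had 21, 15.3 and 33.7 CPM in p53-KO medium and 0.500, 1.86 and 0.649 CPM in preadipocytes, a rise of 4.40 ± 0.45 (adjusted p = 1.28e-08), and of 5.10 without preadipocyte replicate 5. Nr1h3, which encodes the oxysterol receptor LXRα, rose by 2.62 ± 0.25 and Srebf1, a driver of fatty acid synthesis, by 1.26 ± 0.12, both with separate groups. Cebpb, an early factor of the cascade, did not pass with 510, 495 and 611 CPM against 390, 270 and 472 CPM (0.51 ± 0.17, adjusted p = 0.0521). Set against regular differentiation directly, a comparison in which 17.3% of all genes tested were lower and 17.2% higher in p53-KO medium, 11 of the 17 were lower and 0 higher, Pparg by -1.77 on the log2 scale. In bulk RNA, fewer cells that differentiated and less RNA in each of them cannot be told apart. Without both doubted libraries 11 of 19 rose and 0 fell.

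Lipid droplet genes lay well above preadipocytes and short of regular differentiation. Of 15 lipid droplet and lipolysis genes, 13 rose over preadipocytes and 0 fell, and their summed level of 2939 to 3191 CPM in p53-KO medium stood against 558 to 580 CPM in preadipocytes. Plin1, the coat protein that guards the droplet, had 105, 96.6 and 107 CPM in p53-KO medium against 1.00, 1.24 and 0 CPM in preadipocytes. It was nearly absent from preadipocytes, and rose by 6.89 ± 0.27 (adjusted p = 4.64e-17). Cidec, which fuses droplets into a large one, had 603, 554 and 523 CPM against 2.5, 23 and 3.89 CPM, where replicate 5 is the highest of the preadipocytes. Its rise was 5.88 ± 0.51, and 7.46 without preadipocyte replicate 5. G0s2, an inhibitor of the lipase ATGL, rose by 4.93 ± 0.37, Pnpla2, which encodes that lipase, by 4.10 ± 0.23, and Lipe, the hormone-sensitive lipase, by 4.19 ± 0.25. Without preadipocyte replicate 5 the rise of G0s2 was 5.96. Plin2, a coat protein found on droplets of many cell types, had 309, 355 and 378 CPM in p53-KO medium and 199, 178 and 180 CPM in preadipocytes and rose by 0.90 ± 0.11. Adrb3, the adrenergic receptor that triggers lipolysis in fat, had 35 counts in all in p53-KO medium and 1 in preadipocytes, a ratio of 70.6 with a 95% counting interval of 11.9 to 2870 (intervals and floors here cover counting error only). Hcar1 and Hcar2, receptors for lactate and for ketone bodies that restrain lipolysis, were among the 10 largest rises. Hcar2 had 56 counts in p53-KO medium and 0 in preadipocytes, which at 3 counts taken as the most a group total of 0 allows is at least 37.6-fold higher, and Hcar1 had 61 against 1, a ratio of 123 (21.3 to 4940).

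**Figure D2:**
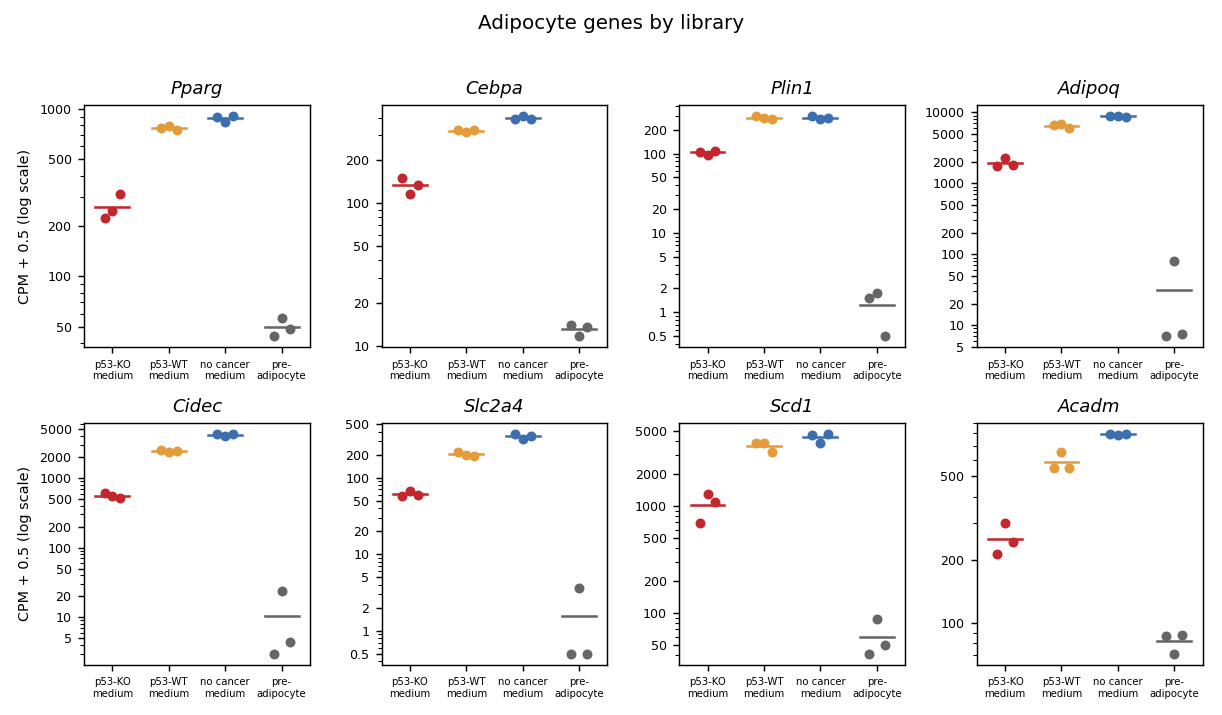
Points are single libraries and bars the group means of 8 adipocyte genes, as CPM plus 0.5 on a log scale, for p53-KO medium, p53-WT medium, regular differentiation (no cancer medium) and preadipocytes. In each panel the p53-KO libraries lie above the preadipocytes and below the libraries of regular differentiation; Adipoq has 1774, 2298 and 1820 CPM in p53-KO medium.

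Genes of fatty acid handling rose as well. Of 22 genes of fatty acid and triglyceride synthesis 15 rose and 0 fell (median 1.46, and 3.01 in regular differentiation), and of 17 genes of uptake and insulin response 15 rose and 0 fell (1.75 and 2.71). Thrsp, a regulator of lipogenesis, had 126, 164 and 136 CPM in p53-KO medium and 0, 1.86 and 0.649 CPM in preadipocytes, a rise of 7.38 ± 0.28 (adjusted p = 1.9e-16). Scd1, the desaturase that makes oleate, had 696, 1286 and 1089 CPM against 41, 86.4 and 49.3 CPM, and rose by 4.13 ± 0.33. Its relative Scd2 did not pass, with 478, 472 and 491 CPM against 432, 531 and 420 CPM (0.06 ± 0.11, adjusted p = 0.765), although regular differentiation stood at 1520 CPM. Scd1 shares 20.2% of the sequence stretches at its 3′ end with other genes, Scd2 among them, so its count is uncertain. Dgat2 and Dgat1, which close triglyceride synthesis, rose by 3.95 ± 0.19 and 2.28 ± 0.12. Gpd1, which makes its glycerol backbone, rose by 5.97 ± 0.57, and Fasn, the fatty acid synthase itself, had 10.5, 5.42 and 4.4 CPM against 1.00, 3.11 and 2.59 CPM and lost its call without p53-KO replicate 1 (adjusted p 0.0305 with all libraries, 0.201 without that one), without preadipocyte replicate 4 (0.138) and without both doubted libraries (0.143). Slc2a4, the insulin-responsive glucose transporter GLUT4, had 56.3, 65.9 and 58.6 CPM in p53-KO medium and 0, 3.11 and 0 CPM in preadipocytes. It rose by 5.85 ± 0.39 (adjusted p = 3.61e-10). Fabp4, the cytosolic fatty acid carrier, rose by 5.09 ± 0.76 (adjusted p = 0.00158, and 0.0504 in the 6 compared libraries alone) and Lpl, the lipase that releases fatty acids outside the cell, by 2.93 ± 0.14. Cd36, a fatty acid translocase, was uneven with 3.93, 65 and 39.6 CPM in p53-KO medium and 1.00, 0 and 0 CPM in preadipocytes, and lost its call when any of 5 single libraries was left out, replicates 2 and 3 of p53-KO medium and each of the preadipocytes (adjusted p 0.0591 to 0.133). Preadipocyte replicate 5 held the most of several of these transcripts in its group, and without it the rises were larger, 8.62 for Thrsp, 7.70 for Gpd1, 6.64 for Fabp4 and 9.50 for Slc2a4.

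Secreted adipokines came up as a group, 7 of 8 higher and 0 lower (median 3.61). Adipoq, which encodes adiponectin, had 1774, 2298 and 1820 CPM in p53-KO medium against 6.51, 80.2 and 7.13 CPM in preadipocytes. The p53-KO libraries were close to each other and the preadipocytes were not, which gave a rise of 6.00 ± 0.78 (adjusted p = 0.000702), and 8.23 without the doubted libraries. Cfd, the complement protease adipsin, rose by 5.41 ± 0.71 and Retn, resistin, by 4.74 ± 0.55. Without preadipocyte replicate 5 these rises were 7.45 and 6.62. Rarres2, the chemoattractant chemerin, had 997, 1120 and 1036 CPM against 11, 44.1 and 8.43 CPM (5.65 ± 0.47), and in this gene p53-KO medium and regular differentiation (mean 1751 CPM) did not pass a test of their difference (adjusted p = 0.157). Its rise was 6.73 without preadipocyte replicate 5. Adm, the vasodilator adrenomedullin, was the adipokine that regular differentiation lowered: it had 105, 110 and 101 CPM in p53-KO medium, a mean of 18.4 CPM in regular differentiation and 46.5, 37.3 and 38.9 CPM in preadipocytes.

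Oxidative metabolism was raised more broadly than strongly. Of 32 genes of the citric acid cycle and fatty acid oxidation 25 rose and 0 fell, with a median of 0.67 against 1.70 in regular differentiation. Acadm, the medium-chain acyl-CoA dehydrogenase, had 214, 299 and 242 CPM in p53-KO medium and 86.1, 70.9 and 87.5 CPM in preadipocytes. It rose by 1.63 ± 0.13 (adjusted p = 7.64e-11), and Idh3a, a subunit of isocitrate dehydrogenase, by 1.35 ± 0.11. Of 33 nuclear-encoded respiratory chain subunits 10 rose and 0 fell in p53-KO medium, where regular differentiation raised 31. Uqcrfs1, the Rieske iron-sulfur protein of complex III, led them with 384, 368 and 387 CPM against 198, 228 and 197 CPM (0.87 ± 0.10). Ndufa1 of complex I did not pass, with 292, 372 and 268 CPM against 304, 296 and 346 CPM. Without p53-KO replicate 1 alone 16 of the 33 rose, and the same number without both doubted libraries. Of 17 genes of branched-chain amino acid breakdown 11 rose and 0 fell (median 0.86, and 2.00 in regular differentiation), among them Dbt, a subunit of the dehydrogenase complex, by 2.24 ± 0.31. Of 17 peroxisomal genes 8 rose and 0 fell, Pex11a, which divides peroxisomes, by 2.29 ± 0.19 and Cat, catalase, by 1.23 ± 0.14. Glycolysis and hypoxia genes counted 13 of 25 higher and 1 lower. Bnip3, a mitophagy receptor, rose by 2.37 ± 0.14, Egln3, an oxygen-sensing hydroxylase, by 2.96 ± 0.25 and Ldha, lactate dehydrogenase, by 0.53 ± 0.10. Bnip3, Ldha and Gapdh share 33.3%, 31.1% and 66.2% of their 3′ stretches with other genes, so their counts are uncertain. Gapdh was not called although its libraries spanned 52.4, 1904 and 645 CPM in p53-KO medium against 51, 36.7 and 51.9 CPM in preadipocytes, a spread within the group of over an order of magnitude. Cholesterol synthesis moved little, with 4 of 19 higher and 1 lower (median 0.06, and 1.01 in regular differentiation). Of 14 brown and beige fat genes 4 were tested and rose. These 4 summed to only 6.51 to 8.71 CPM in preadipocytes and so passed the filter on low counts through the groups where they are high, and their count is no support for a change of the list. Kcnk3, a potassium channel of thermogenic fat, rose by 4.30 ± 0.25 and Cox7a1, a muscle and brown fat subunit of complex IV, by 3.10 ± 0.54. Without p53-KO replicate 3 or preadipocyte replicate 5 or 6, 3 of the 4 passed, and the rise of Cox7a1 was 2.43 without preadipocyte replicate 4 and 3.71 without replicate 6. Ucp1, the defining gene of that lineage, has no row among the genes analysed here.

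**Figure D3:**
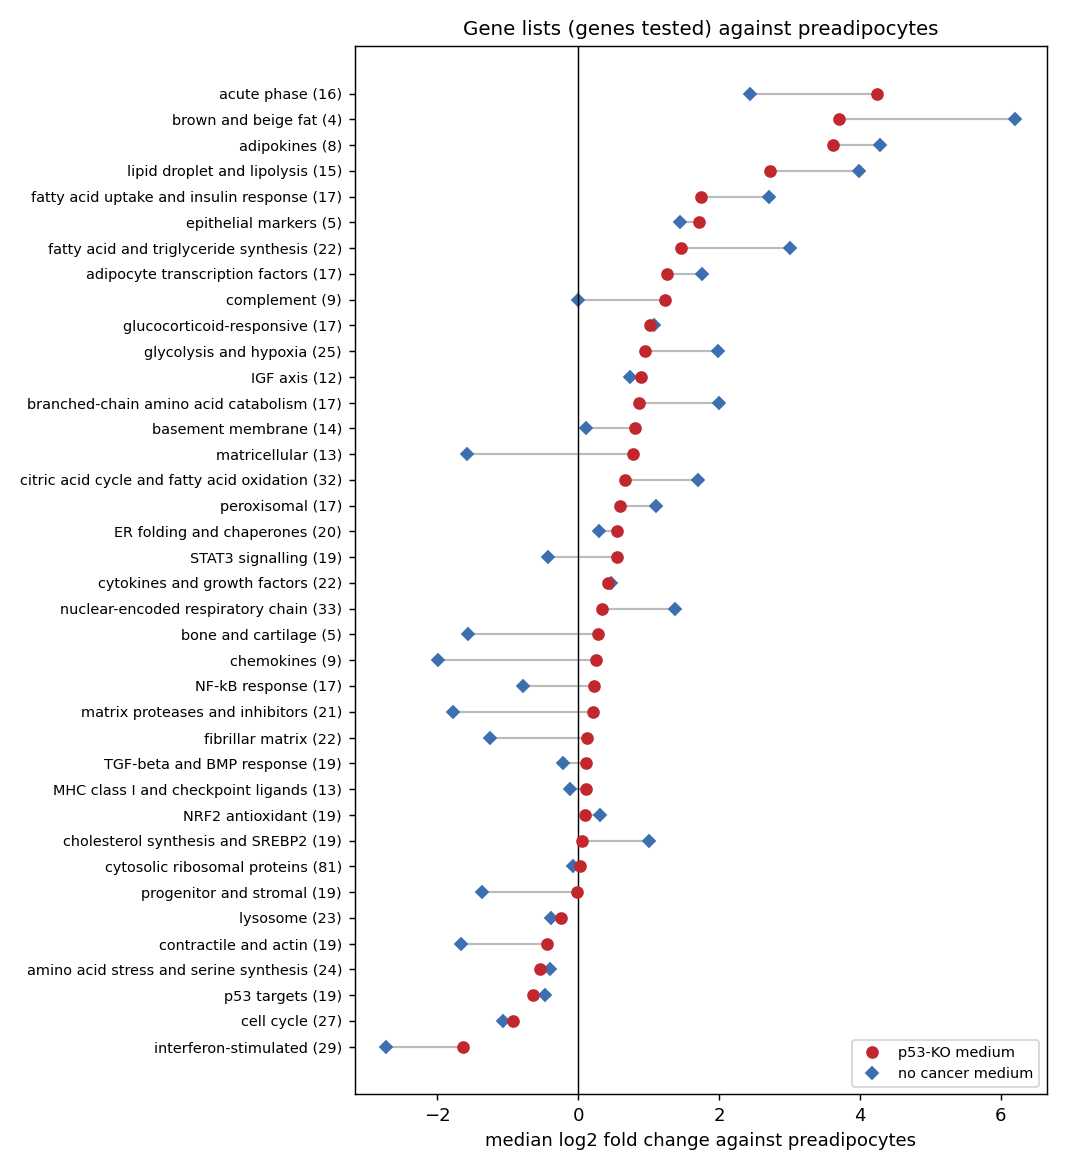
For each gene list with at least 4 genes tested (number in brackets), the red circle is the median log2 fold change of p53-KO medium over preadipocytes and the blue diamond that of regular differentiation over the same preadipocytes; both share the preadipocyte libraries. Fat metabolism lists lie right of 0 with the circle short of the diamond, and matricellular, protease, chemokine, STAT3 and complement lists have the circle right of the diamond.

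Progenitor and stromal genes stood near the preadipocyte level in p53-KO medium. Of 19 progenitor and stromal genes 2 rose and 2 fell, beside 12.1% higher and 8.4% lower over all genes tested. Their median was -0.01, where regular differentiation gave -1.37. Thy1, a surface glycoprotein of mesenchymal cells, had 317, 269 and 314 CPM in p53-KO medium and 278, 313 and 316 CPM in preadipocytes. The groups overlapped (-0.02 ± 0.11, adjusted p = 0.952), and regular differentiation averaged 55 CPM. Prrx1 and Twist1, mesenchymal transcription factors, were also not called, at -0.01 ± 0.13 and 0.20 ± 0.11, and neither was Pdgfrb at -0.07 ± 0.15. Pdgfra, the receptor that marks adipocyte progenitors, went above the preadipocyte level with 249, 388 and 390 CPM in p53-KO medium against 139, 115 and 154 CPM in preadipocytes. It rose by 1.34 ± 0.17 (adjusted p = 6.52e-06), with groups that did not overlap. Dlk1, the preadipocyte factor Pref-1 that inhibits adipogenesis, had 28.8, 31.6 and 26.4 CPM against 21.5, 16.2 and 26.6 CPM and did not pass (adjusted p = 0.278). Gata2, which restrains the adipocyte switch, fell by 1.09 ± 0.34 and Pi16, a marker of early fibroblast progenitors, by 1.32 ± 0.45, and neither call was stable. Gata2 lost it without p53-KO replicate 2 or preadipocyte replicate 4 or 6 (adjusted p 0.0587 to 0.143), and Pi16 without any 1 of the p53-KO libraries or preadipocyte replicate 4 or 6 (0.0524 to 0.126).

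The fibrillar matrix was divided. Of 22 genes 6 rose and 8 fell (median 0.13, and -1.26 in regular differentiation). Col1a2 and Col3a1, chains of collagens I and III, were not called, with 9526, 9955 and 11420 CPM of Col1a2 in p53-KO medium and 10160, 9634 and 9862 CPM in preadipocytes, and a mean of 3957 CPM in regular differentiation. Col1a1, the partner chain of Col1a2, fell by 0.61 ± 0.15, and Fn1, fibronectin, had 2932, 2866 and 2805 CPM against 3692, 4369 and 3869 CPM and fell by 0.47 ± 0.10 (adjusted p = 0.000843). In regular differentiation Fn1 averaged 593 CPM. Lox, the enzyme that cross-links collagen, had 1591, 1390 and 1420 CPM in p53-KO medium against 809, 841 and 870 CPM in preadipocytes. It rose by 0.80 ± 0.10 (adjusted p = 2.85e-07), while regular differentiation stood at 208 CPM. Col6a3, the chain of collagen VI that is cut to endotrophin, had 1509, 1273 and 1555 CPM against 605, 769 and 574 CPM and rose by 1.15 ± 0.12. Postn, periostin, fell with 111, 262 and 215 CPM against 688, 421 and 590 CPM (-1.52 ± 0.28). In a fit of the 6 compared libraries alone, Col1a1 and Postn did not pass (adjusted p 0.0629 and 0.0535).

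Most basement membrane genes rose, and matricellular genes were divided. Of 14 basement membrane genes 11 rose and 0 fell, and without both doubted libraries 8 of 15 rose. Col4a1 and Col4a2, the chains of its collagen network, rose by 1.03 ± 0.10 and 1.18 ± 0.10, with 1554, 1580 and 1870 CPM of Col4a1 in p53-KO medium against 840, 708 and 896 CPM in preadipocytes. Nid1 and Nid2, nidogens that link collagen IV to laminin, rose by 1.14 ± 0.10 and 1.78 ± 0.20, and Col15a1 by 3.03 ± 0.31. Of 13 matricellular genes 6 rose and 3 fell, with a median of 0.77 where regular differentiation gave -1.58. Tnn, tenascin W, was the largest of them and had 136, 77.6 and 142 CPM in p53-KO medium against 2.00, 1.86 and 4.54 CPM in preadipocytes, with 1.34 CPM on average in regular differentiation and 32.1 CPM in p53-WT medium. It rose by 5.37 ± 0.31 (adjusted p = 2.31e-13), and by 5.05 without the doubted libraries. Thbs1, thrombospondin 1, rose by 0.85 ± 0.14, and Sparcl1, an antiadhesive relative of SPARC, by 1.85 ± 0.11. Among matrix proteases and inhibitors 8 of 21 rose and 1 fell. Timp2 and Mmp2, an inhibitor and the gelatinase it binds, were not called, with 818, 828 and 838 CPM of Timp2 against 833, 855 and 789 CPM and a mean of 183 CPM in regular differentiation; its log2 difference of 0.004 ± 0.10 had an adjusted p of 0.987 and took the other sign (-0.08) under plain library sizes. Mmp3, stromelysin, was not called, with 2.62, 9.03 and 10.3 CPM in p53-KO medium and 6.51, 0.622 and 12.3 CPM in preadipocytes. Mmp9, the other gelatinase, fell by 1.36 ± 0.27 (17, 19 and 13.2 CPM against 45.5, 48.5 and 35 CPM). Contractile genes fell in part, 11 of 19 lower and 0 higher: Acta2, smooth muscle actin, had 9.17, 7.22 and 10.3 CPM in p53-KO medium and 32.5, 39.2 and 29.2 CPM in preadipocytes (-1.95 ± 0.35), with 2.18 CPM in regular differentiation.

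The 183 genes that p53-KO medium carried past the preadipocyte level, with regular differentiation below it, had a median log2 fold change of 0.76 over preadipocytes in p53-KO medium and of -0.78 in regular differentiation. The rule fixes these signs, so they are a description. In 172 of the 183 the p53-KO libraries lay above all preadipocyte libraries, as in 16.4% of all genes tested, called or not. The call on the same libraries favours such genes, so this count adds no support. Of the 183, 64 were at least 2-fold higher, and in 122 regular differentiation was itself called below preadipocytes. In 173 the p53-KO mean was also above the mean of p53-WT medium, whose median change against preadipocytes over these genes was -0.14. Leaving out single libraries gave 161 to 201 such genes. The lists with the largest share were complement, with 4 of 9, STAT3 signalling with 6 of 19, matricellular with 4 of 13 and basement membrane with 4 of 14, beside 1.92% of all genes tested. Among the 183 were the duplicates C1ra and C1rb, and C1s1 and C1s2, which share 27.7% to 53.2% of the sequence stretches at their 3′ ends with other genes. Lama5 and Hspg2, also among the 183, did not pass without both doubted libraries (adjusted p 0.255 and 0.141). The lists of fat storage, lipid synthesis, respiration, cell cycle and contraction held none of them.

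Named by size, the 10 largest with separate libraries and at least 20 CPM were Tnn, Ctla2a, Clca3a1, Pla1a, Pde1b, Ccn5, Cyp7b1, Nbl1, Osmr and Ampd3. Osmr, the receptor chain for oncostatin M, had 143, 124 and 132 CPM in p53-KO medium against 36, 32.3 and 32.4 CPM in preadipocytes, and rose by 1.97 ± 0.14 (adjusted p = 1.49e-11). Its mean in p53-WT medium was 160 CPM. Clca3a1, a secreted regulator of chloride channels, had 397, 523 and 563 CPM against 90.1, 77.7 and 80.4 CPM (2.57 ± 0.13). Pla1a, a phosphatidylserine phospholipase, had 19.6, 24.4 and 22 CPM against 1.00, 6.22 and 4.54 CPM (2.55 ± 0.45). Separate libraries were a condition for naming these 10 genes, so their separation adds no support. Cyp7b1, which hydroxylates oxysterols, rose by 2.20 ± 0.23, Pde1b, a calmodulin-dependent phosphodiesterase, by 2.51 ± 0.28, Nbl1, a secreted BMP antagonist of the DAN family, by 2.12 ± 0.34 (1.5 without both doubted libraries), and Ampd3, an AMP deaminase, by 1.90 ± 0.21. Grem1, another BMP antagonist, had 81.2, 106 and 193 CPM in p53-KO medium, a mean of 0.889 CPM in regular differentiation and 46.5, 18 and 40.2 CPM in preadipocytes. It rose by 1.82 ± 0.42 over preadipocytes (adjusted p = 0.013, and 0.0647 in the 6 compared libraries alone). Ctla2a, a cathepsin inhibitor, and Clca3a1 share 37.5% and 29.8% of their 3′ stretches with other genes and are uncertain. Tnn lies at chr1:160085029-160153580 on the minus strand, Osmr at chr15:6813577-6874969 on the minus strand and Pdgfra at chr5:75152292-75198215 on the plus strand (GENCODE vM21 on GRCm38, the build mm10 of the submitters' notes).

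**Figure D4:**
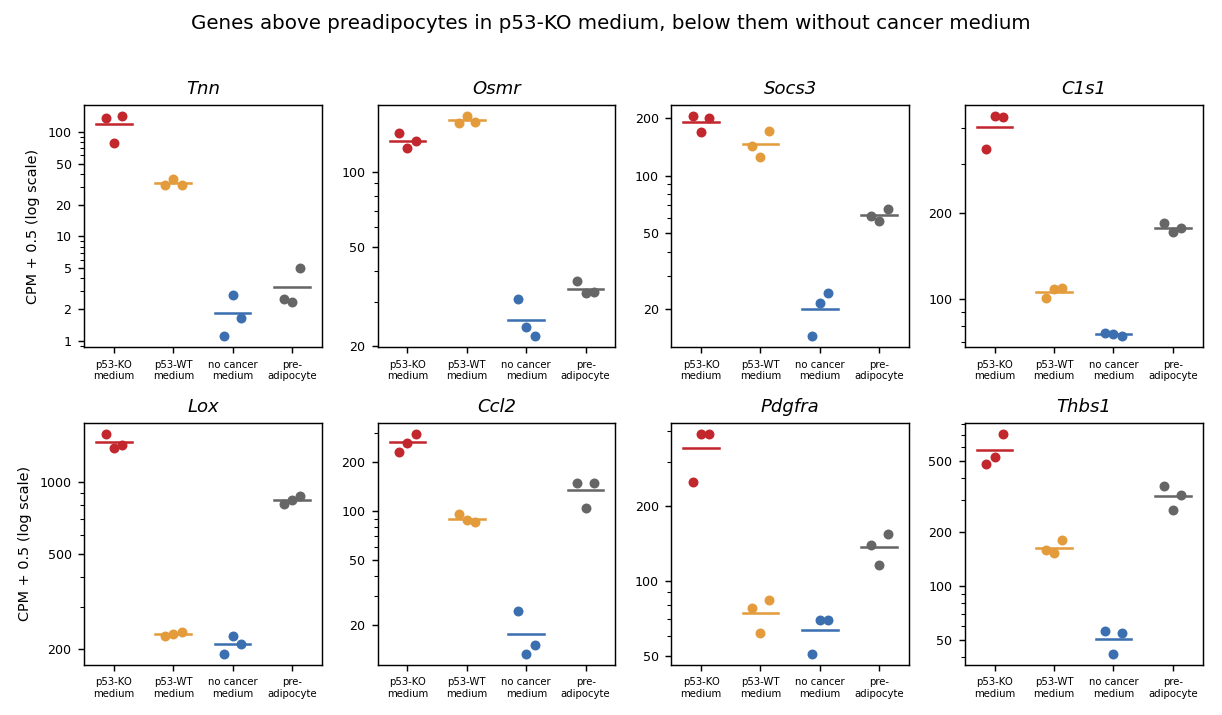
Points are single libraries and bars the group means of 8 genes, as CPM plus 0.5 on a log scale, in p53-KO medium, p53-WT medium, regular differentiation (no cancer medium) and preadipocytes. The p53-KO libraries lie above the preadipocytes in each panel and the mean of regular differentiation lies below the preadipocyte mean, with some overlap of single libraries in Tnn; Osmr and Socs3 are also above preadipocytes in p53-WT medium, while Lox, Pdgfra and Thbs1 are below them there.

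Acute phase proteins, which liver and fat secrete in inflammation, rose in 12 of 16 cases and fell in 1, with a median of 4.24 that regular differentiation (2.44) did not reach. In p53-WT medium the median was higher, at 4.96. Their summed level was 8922 to 9806 CPM there, against 2188 to 2651 CPM in p53-KO medium. Saa3, serum amyloid A3, had 109, 67.7 and 111 CPM in p53-KO medium against 0.500, 1.86 and 0 CPM in preadipocytes, with 1.36 CPM in regular differentiation. It rose by 6.77 ± 0.45 (adjusted p = 4.24e-11), and by 8.01 without preadipocyte replicate 5, although 11.3% of its 3′ stretches occur in other genes. Lcn2, the iron-trapping lipocalin, had 193, 175 and 157 CPM against 2.5, 6.22 and 2.59 CPM and rose by 5.53 ± 0.25. Both were near 0 in each preadipocyte library. Saa3 and Lcn2 passed the filter on low counts through the groups where they are high, so their rises are no support for a change of the list. Serpina3n, a serine protease inhibitor, had 352, 362 and 377 CPM against 4.5, 29.9 and 9.73 CPM (4.67 ± 0.43), and Hp, haptoglobin, 1534, 1040 and 966 CPM against 8.51, 129 and 8.43 CPM (4.62 ± 0.87, adjusted p = 0.0057). In both, preadipocyte replicate 5 was the highest of its group, and without it the rises were 5.72 and 7.11. In the 6 compared libraries alone Hp did not pass (adjusted p = 0.0973). Orm1, an orosomucoid that shares 38.3% of its 3′ stretches with its paralogs, rose by 4.98 ± 0.44, and by 6.21 without preadipocyte replicate 5. Ptx3, a long pentraxin, was the member that fell, with 89.1, 90.3 and 93.8 CPM against 250, 229 and 226 CPM (-1.37 ± 0.12). Angptl7, a secreted angiopoietin-like protein that was among the 10 largest rises over all genes, had 138 counts in p53-KO medium and 2 in preadipocytes, a ratio of 139 (95% counting interval 37.8 to 1160).

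Complement genes rose in 7 of 9 cases with 0 lower (6 of 9 with 2 lower without the doubted libraries). Their summed level was 2450 to 2665 CPM in p53-KO medium and 585 to 663 CPM in preadipocytes. It was 2429 to 2676 CPM in regular differentiation and 3059 to 3289 CPM in p53-WT medium. C3, the central component, had 1544, 1555 and 1624 CPM in p53-KO medium against 145, 159 and 103 CPM in preadipocytes and rose by 3.53 ± 0.13 (adjusted p = 6.01e-18). C1s1, a protease of the C1 complex, had 337, 442 and 438 CPM in p53-KO medium against 184, 171 and 178 CPM in preadipocytes. C1ra, the protease that activates it, had 334, 218 and 347 CPM against 127, 124 and 127 CPM. They rose by 1.19 ± 0.11 and 1.24 ± 0.14, and regular differentiation lay below preadipocytes in both. They share 34.7% and 27.7% of their 3′ stretches with other genes, among them the duplicates C1s2 and C1rb, which also rose (1.65 ± 0.22 and 1.07 ± 0.13), so the count of a single copy is uncertain. Among 19 genes of STAT3 signalling 10 rose and 2 fell (8 and 2 without the doubted libraries). In p53-WT medium 11 of the 19 rose and 5 fell, with a median of 0.97 beside 0.55 in p53-KO medium. Socs3, the feedback inhibitor of STAT3 signalling, had 204, 169 and 199 CPM in p53-KO medium against 61.1, 57.2 and 66.2 CPM in preadipocytes. It rose by 1.63 ± 0.15 (adjusted p = 1.67e-09), with regular differentiation at a mean of 19.6 CPM. Stat3 itself rose by 0.99 ± 0.13, Il6st, the shared receptor gp130, by 0.55 ± 0.12 and Pim1, a kinase target, by 2.80 ± 0.43.

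Chemokines and NF-κB genes had summed levels above those of preadipocytes, while most single members were not called. The chemokine sum was 2509 to 2657 CPM in p53-KO medium and 1813 to 1883 CPM in preadipocytes, and the sum of NF-κB response genes was 1440 to 1540 CPM against 1263 to 1364 CPM. Cxcl12 made up most of the chemokine sum, with a mean of 2102 CPM in p53-KO medium and 1503 CPM in preadipocytes. Of 9 chemokines 2 rose and 1 fell (median 0.25, and -1.996 in regular differentiation), beside 12.1% higher and 8.4% lower over all genes tested. Ccl2, which attracts monocytes, had 232, 262 and 299 CPM in p53-KO medium against 148, 104 and 148 CPM in preadipocytes and rose by 0.98 ± 0.15 (adjusted p = 1.32e-05). Cxcl12, the ligand of CXCR4, rose by 0.48 ± 0.10. Cxcl1 and Cxcl5, neutrophil attractants, were not called, with 52.4, 37 and 24.9 CPM of Cxcl1 against 25, 29.2 and 35 CPM and 40.6, 46 and 57.1 CPM of Cxcl5 against 51.5, 41.7 and 50.6 CPM. Cxcl10, an interferon-induced chemokine, fell to 3.93, 1.81 and 1.47 CPM in p53-KO medium, against 14, 14.3 and 14.9 CPM in preadipocytes. Ccl7 stood at 2.62, 59.6 and 70.3 CPM against 51.5, 6.84 and 53.8 CPM, low in the doubted library of each group. Of 17 NF-κB response genes 4 rose and 1 fell: Nfkbiz, an atypical inhibitor that co-activates some targets, rose by 1.33 ± 0.22 and Bcl3 by 1.11 ± 0.21, and Nfkb1, the p105 precursor, fell by 0.56 ± 0.15 (adjusted p = 0.0091, and 0.0674 without both doubted libraries). Il1rn, the natural antagonist of the IL-1 receptor, had 24 counts in p53-KO medium and 0 in preadipocytes, at least 16.1-fold higher with the same 3 counts as the limit. Igf2, a fetal growth factor, rose by 3.87 ± 0.30, and Igfbp4, a binding protein that blocks IGF action, by 2.02 ± 0.13. Igf2 shares 80.9% of its 3′ stretches with another gene model.

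Of the gene lists examined, the interferon-stimulated genes had the most falls. Of 29 tested 23 were lower and 1 higher, with a median of -1.64, and without both doubted libraries 23 of 30 were lower and 1 higher; 8.4% of all genes tested were lower. Isg15, a ubiquitin-like modifier, had 49.8, 43.3 and 41 CPM in p53-KO medium against 530, 486 and 398 CPM in preadipocytes. It fell by 3.40 ± 0.17 (adjusted p = 6.99e-15), with 10.6% of its 3′ stretches shared with other genes. Ifit1, which binds foreign RNA, had 9.17, 10.8 and 5.86 CPM against 118, 115 and 68.8 CPM (-3.48 ± 0.39), and Usp18, which removes ISG15 and damps the receptor, 2.62, 5.42 and 2.93 CPM against 81.6, 53.5 and 64.2 CPM (-4.07 ± 0.33). The groups were far apart in each of these genes. The transcription factors of the response fell too: Stat2 by 1.48 ± 0.17, Irf9 by 1.68 ± 0.18 and Irf7 by 2.19 ± 0.27. Bst2, tetherin, had 461, 363 and 365 CPM against 1302, 1204 and 1026 CPM and a mean of 96.6 CPM in regular differentiation, so p53-KO medium lay between the other groups. Regular differentiation lowered the list further (median -2.73), and 13 of the 29 were higher in p53-KO medium than in regular differentiation and 2 lower. Ifi27l2a was among the 2 lower ones (-1.12, adjusted p = 8.91e-05), and Usp18 and Irf7 did not pass this test (-0.88 and -0.16). Psmb8, a subunit of the immunoproteasome, was the member that rose (1.33 ± 0.28), with an adjusted p of 0.000861 that became 0.0504 without p53-KO replicate 2. Of 13 genes of MHC class I and checkpoint ligands 4 rose and 1 fell, H2-T23, a nonclassical class I gene with 41.5% shared stretches, by 1.35 ± 0.21 and Tap2, the peptide transporter, by 1.02 ± 0.19. Cd274, which encodes the checkpoint ligand PD-L1, had too few counts for the test, 2 in p53-KO medium and 9 in preadipocytes. Cd74, the class II invariant chain, fell by 3.26 ± 0.24, and Ptprv, a receptor phosphatase gene, had the largest fall among called genes with separate libraries and at least 20 CPM, with 2.62, 1.81 and 1.47 CPM against 41, 44.8 and 46 CPM (-4.43 ± 0.40).

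Promoter sequence was set beside this group because its members moved together. The motif GAAANNGAAA, the core of the interferon-stimulated response element, was sought on both strands from 250 bases before to 50 after each start site in RefSeq (GRCm38.p6). It was present in 3.44% of 32851 promoters, and in 3.6% of the 7668 tested genes with a promoter entry. It was found in 13 of the 21 listed genes that have a promoter entry, and in 11 of the 16 of these that were called. The promoters of Isg15 (chr4:156200769-156201068, minus strand, 3 overlapping matches) and Ifit1 (chr19:34640639-34640938, plus strand, 2 matches on the reverse strand) are printed 5′ to 3′ with the matches in capitals. A match is a string of letters and says nothing of whether the site was bound.
Isg15: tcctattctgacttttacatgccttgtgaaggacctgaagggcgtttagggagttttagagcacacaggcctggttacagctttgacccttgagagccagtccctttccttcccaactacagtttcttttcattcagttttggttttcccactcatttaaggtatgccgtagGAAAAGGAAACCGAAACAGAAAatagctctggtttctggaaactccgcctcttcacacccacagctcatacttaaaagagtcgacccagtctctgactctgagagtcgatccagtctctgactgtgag
Ifit1: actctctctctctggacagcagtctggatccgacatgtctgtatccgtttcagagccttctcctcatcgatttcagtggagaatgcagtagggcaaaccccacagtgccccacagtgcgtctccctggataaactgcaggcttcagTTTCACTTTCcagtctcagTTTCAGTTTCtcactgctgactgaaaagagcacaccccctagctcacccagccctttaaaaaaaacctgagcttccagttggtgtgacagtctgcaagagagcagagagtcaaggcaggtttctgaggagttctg
The motif TTGCNNAA, a C/EBP-type sequence, was present in 10.8% of promoters and in 9.89% of tested genes with an entry. It was found in 8 of 12 acute phase genes with an entry and in 3 of 5 complement genes. These lists are shown because acute phase and complement genes also rose together. The promoters of Saa3 (chr7:46715627-46715926, minus strand) and C1s1 (chr6:124542310-124542609, minus strand) hold 1 match each, in capitals, and that of Saa3 also holds the interferon motif, which is not marked.
Saa3: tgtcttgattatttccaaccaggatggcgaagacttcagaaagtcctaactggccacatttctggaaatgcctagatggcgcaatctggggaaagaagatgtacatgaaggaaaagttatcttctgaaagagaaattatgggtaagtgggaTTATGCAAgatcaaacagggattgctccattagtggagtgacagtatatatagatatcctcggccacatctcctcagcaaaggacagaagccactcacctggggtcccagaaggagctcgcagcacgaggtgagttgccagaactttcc
C1s1: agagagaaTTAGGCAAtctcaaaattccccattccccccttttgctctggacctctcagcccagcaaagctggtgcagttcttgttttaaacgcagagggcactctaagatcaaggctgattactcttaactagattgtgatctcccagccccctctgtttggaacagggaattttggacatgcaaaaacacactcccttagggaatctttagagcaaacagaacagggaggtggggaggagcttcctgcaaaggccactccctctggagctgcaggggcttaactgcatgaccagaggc

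Cell cycle genes fell in 18 of 27 cases and rose in 0, with a median of -0.93, close to that of regular differentiation (-1.07). Mki67, the proliferation antigen, had 3.93, 5.42 and 7.33 CPM in p53-KO medium against 21, 11.8 and 19.5 CPM in preadipocytes, with 10.6% of its 3′ stretches shared. Aurka, a spindle kinase, had 2.62, 5.42 and 8.79 CPM against 19.5, 29.9 and 24 CPM (-2.13 ± 0.41, adjusted p = 0.000278), and Ccna2, cyclin A2, 6.55, 8.12 and 7.33 CPM against 27, 33 and 20.1 CPM (-1.84 ± 0.33). These are low values, and the groups did not overlap in these genes. Without p53-KO replicate 3 or preadipocyte replicate 6, 13 of the 27 fell. Mcm5, part of the replicative helicase, fell by 1.45 ± 0.31, and Pcna, the sliding clamp, was not called (-0.36 ± 0.14, adjusted p = 0.0696) and shares 32.3% of its stretches. Ccnd1, cyclin D1 of the start of the cycle, was not called either, with 265, 252 and 372 CPM in p53-KO medium and 356, 264 and 373 CPM in preadipocytes, where regular differentiation averaged 51.1 CPM. Set against regular differentiation, 4 of the 27 were higher and 2 lower in p53-KO medium. The motif TTTGAA, a form of the cell cycle homology region, was in 17.9% of promoters and in 13.4% of tested genes with an entry. Of 21 listed genes with an entry 10 held it. Ccnb2, cyclin B2, which fell by 1.52 ± 0.35, holds the motif at 2 places (chr9:70421505-70421804, minus strand), the second just after the start site, and is printed as an example with the matches in capitals.
Ccnb2: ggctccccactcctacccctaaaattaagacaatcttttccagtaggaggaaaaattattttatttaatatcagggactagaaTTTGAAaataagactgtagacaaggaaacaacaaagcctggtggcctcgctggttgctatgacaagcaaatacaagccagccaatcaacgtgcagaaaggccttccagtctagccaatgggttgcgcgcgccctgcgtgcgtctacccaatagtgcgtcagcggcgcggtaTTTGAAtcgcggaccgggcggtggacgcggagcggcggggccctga

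**Figure D5:**
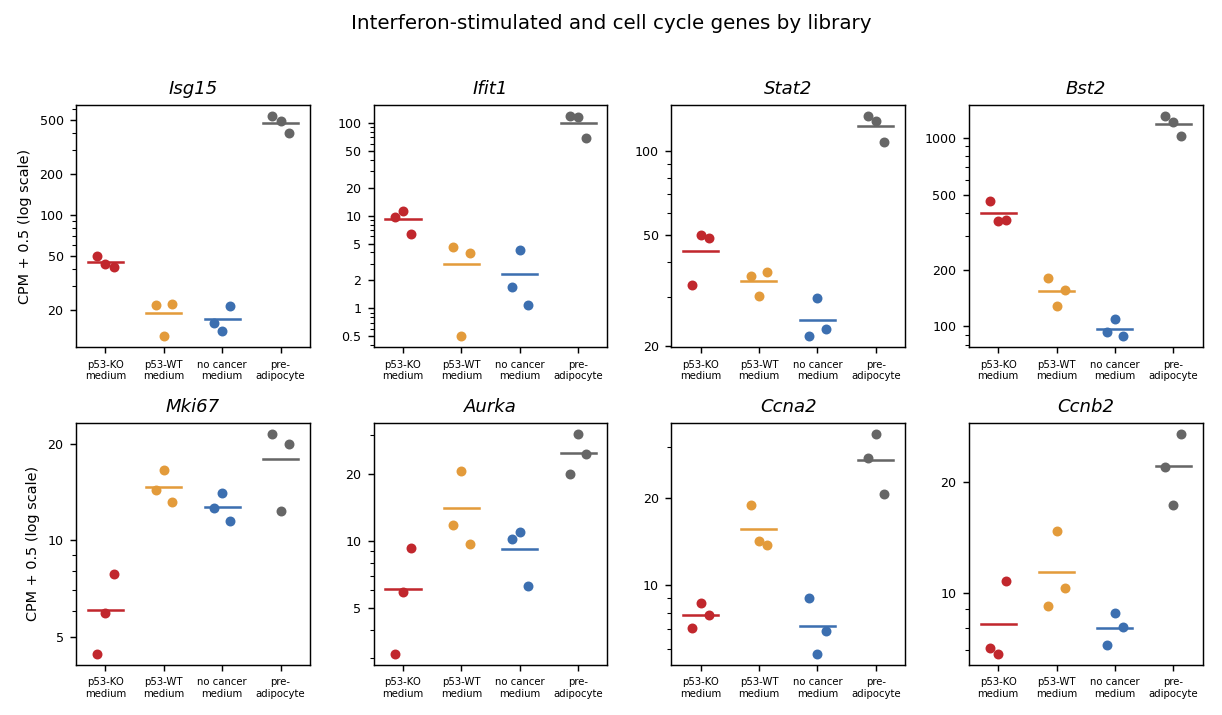
Points are single libraries and bars the group means of 4 interferon-stimulated genes (top row) and 4 cell cycle genes (bottom row), as CPM plus 0.5 on a log scale, in p53-KO medium, p53-WT medium, regular differentiation (no cancer medium) and preadipocytes. The preadipocyte mean is the highest in each panel; Isg15 has 530, 486 and 398 CPM there.

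Targets of p53 in the recipient cells fell in 7 of 19 cases and rose in 1. Against the same preadipocytes, regular differentiation lowered 8 of the 19 and raised 4, and p53-WT medium lowered 11 and raised 2. The medians were -0.64 in p53-KO medium, -0.47 in regular differentiation and -0.73 in p53-WT medium, so the fall was not particular to p53-KO medium. Cdkn1a, the inhibitor p21, had 274, 250 and 248 CPM in p53-KO medium against 423, 570 and 448 CPM in preadipocytes (-0.90 ± 0.11), Ccng1, cyclin G1, fell by 1.11 ± 0.14 and Zmat3, an RNA-binding target, by 1.22 ± 0.19. Btg2, an antiproliferative gene with other inducers as well, rose by 1.37 ± 0.16. Trp53 itself had 34.1, 44.2 and 61.5 CPM against 108, 46.6 and 102 CPM and was not called (-0.90 ± 0.34, adjusted p = 0.0914), while without the doubted libraries it fell by 1.04 (adjusted p = 6.23e-05). Genes of amino acid stress and serine synthesis fell in 14 of 24 cases and rose in 1. Phgdh and Psph, enzymes of serine synthesis, fell by 1.2 ± 0.16 and 0.89 ± 0.15, Asns, asparagine synthetase, by 0.86 ± 0.13 and Slc7a5, a transporter of large amino acids, by 1.08 ± 0.18. Phgdh shares 59.9% of its 3′ stretches with other genes. Nupr1, a stress-induced chromatin protein, was the member that rose (1.5 ± 0.12). Of 20 genes of folding in the endoplasmic reticulum 11 rose and 0 fell, Dnajb9, a co-chaperone, by 1.59 ± 0.16, Xbp1, a factor of the unfolded protein response, by 1.06 ± 0.10 and Hspa5, the chaperone BiP, by 0.36 ± 0.10 (adjusted p = 0.0103, and 0.0557 without preadipocyte replicate 6). Of 17 glucocorticoid-responsive genes 12 rose and 0 fell, with medians of 1.01 in p53-KO medium and 1.08 in regular differentiation. Fkbp5, a chaperone of the receptor, had 276, 187 and 233 CPM in p53-KO medium, a mean of 126 CPM in regular differentiation and 52, 74.6 and 49.3 CPM in preadipocytes. Zbtb16, a glucocorticoid-induced repressor, rose by 3.88 ± 0.39 and Errfi1, a feedback inhibitor of the EGF receptor, by 2.57 ± 0.22. Of 81 cytosolic ribosomal proteins 2 rose and 1 fell, and 8 rose without p53-KO replicate 3 and 7 without both doubted libraries. Of 23 lysosomal genes 2 rose and 8 fell, and of 19 NRF2 targets 4 rose and 3 fell. All these counts stand beside 12.1% higher and 8.4% lower over all genes tested.

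The 40 genes that fell below preadipocytes in p53-KO medium while regular differentiation stayed above had small changes, with medians of -0.63 and 0.21. Of them 11 were at least 2-fold lower. In 38 the libraries did not overlap, as in 15.2% of all genes tested, called or not. The call favours such genes here too. Rcor2, a co-repressor subunit, had 24.9, 16.2 and 27.8 CPM in p53-KO medium, a mean of 65.8 CPM in regular differentiation and 40.0, 47.9 and 47.3 CPM in preadipocytes (-1.02 ± 0.22). Acot2, a mitochondrial acyl-CoA thioesterase, had 72.1, 46 and 45.4 CPM against 127, 89.5 and 108 CPM in preadipocytes (-1.01 ± 0.17), and Dipk2a fell by 0.73 ± 0.19 (adjusted p = 0.00662, and 0.0534 without preadipocyte replicate 4). Regular differentiation was itself called above preadipocytes in 13 of the 40, and 22 to 35 genes met the same rule when a single library was left out, with 24 without p53-KO replicate 3 and 22 without preadipocyte replicate 4 or 6.

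Markers of other cell types were few. Of 16 macrophage markers 4 had a row among the genes analysed. The 2 that were tested summed to 26.2 to 30.8 CPM in p53-KO medium and 11.8 to 14.5 CPM in preadipocytes. Of these Cd14, which fat cells and fibroblasts can express, rose with 21, 23.5 and 29.3 CPM against 11, 8.08 and 10.4 CPM, and Cd68 had 6.55, 2.71 and 1.47 CPM against 3.5, 3.73 and 3.24 CPM. Endothelial markers with a row were 2 of 12, and the 1 that was tested had 6.32 to 11.7 CPM in p53-KO medium and 4.5 to 7.78 CPM in preadipocytes. Of 17 epithelial markers 7 had a row. The 5 that were tested summed to 31.6 to 61.5 CPM in p53-KO medium, 39.9 to 43.7 CPM in regular differentiation and 9.95 to 22.1 CPM in preadipocytes. Their part in the results was not tested.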

How the data were processed

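Bulk 3′-end RNA libraries were made with MARS-seq, which tags each molecule with a UMI and was counted here per gene in 11035 genes. The deposited table holds the authors' raw counts, and also the authors' own log2 fold changes and adjusted p-values. The submitters' processing notes name cutadapt, HTSeq, DESeq2 and the build mm10, without versions or the step each was used for. Of its 78 columns 14 were used, and 24 columns of per-sample values that match none of the samples here were not. The 12 libraries held 669007 to 2025317 counts, a 3.03-fold range.

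The members and gene lists were chosen with earlier results of these data known. Genes with low counts were removed by filterByExpr, which left 9519, and 4 group means were fitted to the 12 libraries with edgeR 4.0.16 (TMM, robust quasi-likelihood test, R 4.3.3, limma 3.58.1). Genes near 0 in preadipocytes, such as Plin1, Thrsp, Slc2a4 and Saa3, passed this filter through the groups where they are high. Their rises add no support to the counts of their lists. Every adjusted p is from this test, by Benjamini-Hochberg over all genes tested at a threshold of 0.05, and fold changes are log2 values ± SE. CPM are counts scaled to the library size after TMM scaling, not to the plain library total. On simulated counts of 9284 genes the test recovered 64.6% of 2-fold and 89.9% of 4-fold changes, and called 10 unchanged genes. The simulation gave each gene the same spread in all groups, changed only a small part of the genes and held no library that stood apart. Libraries of p53-KO medium were more spread than those of the other groups, so these rates cannot be carried over to the real comparison. Alternatives were DESeq2 1.42.0, other scalings, no filter, thinned counts, the 6 libraries compared alone, and leaving out each library or both doubted ones.

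Named genes were a fixed set, the 10 largest rises and falls with separate libraries and at least 20 CPM, the same among genes that crossed the preadipocyte level against regular differentiation, and up to 4 called members of each list at 10 CPM. The following were named outside this rule after their values were seen: Adm, Asns, Bst2, C1rb, C1s2, Ccl7, Ccnd1, Ccng1, Cd68, Cdkn1a, Cebpb, Col1a2, Col3a1, Col4a1, Cxcl5, Dgat1, Fkbp5, Gapdh, Hp, Hspa5, Il1rn, Il6st, Irf7, Irf9, Ldha, Lipe, Lox, Mcm5, Mmp2, Mmp9, Ndufa1, Pcna, Pdgfrb, Plin2, Pnpla2, Postn, Ppia, Prrx1, Psph, Ptx3, Scd2, Serpina3n, Socs3, Srebf1, Stat2, Stat3, Thbs1, Thy1, Timp2, Twist1. A gene was taken as uncertain where over 10% of the 31-base stretches in its last 500 bases occur in other genes of GENCODE vM21. Adrb3, Il1rn and other genes near 0 are given as counts. Some genes are not reported here.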

Additional observations from a re-analysis of the deposited data

How the results depend on the processing

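All calls, 1956 with all 12 libraries, numbered 1532 with DESeq2, 1356 with the 6 compared libraries alone and 1390 with thinned counts. The count of genes lower in p53-KO medium, 800 with all 12 libraries, was 449 with DESeq2, 489 with the 6 compared libraries alone and 523 after all libraries were thinned to the depth of the smallest. The number of genes below preadipocytes with regular differentiation above, 40 with all libraries, was 15 with DESeq2 and 23 with thinned counts. Leaving out 1 library at a time gave 1604 to 2057 called genes, 1020 to 1257 higher, 560 to 800 lower, 801 to 930 with at least 2-fold changes, 161 to 201 past the preadipocyte level, and 22 to 35 that met the rule behind the 40, with 24 without p53-KO replicate 3 and 22 without preadipocyte replicate 4 or 6. The cause was not tested. Of 238 called genes examined by name, 191 were called in all fits that tested them and 47 lost the call in at least 1, Cd36, Fasn, Gata2, Pi16 and Nfkb1 among them, and none took the other sign while called. DESeq2 gave no adjusted p for Adipoq, Fabp4 and Hp. No paired analysis was possible because p53-KO medium and preadipocytes share no replicate numbers. Regular differentiation and preadipocytes do share numbers: with a replicate block 4782 genes were called, against 4727 in the same 6 libraries without it. Deviations from the group mean correlated at -0.01, 0.121 and 0.065 between same-numbered libraries. With 3 libraries in each group these values cannot settle whether the numbers pair them. The smaller totals of p53-KO medium limit what can be called at low counts.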
